A study of Mus musculus with 6 samples.

Results

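The genes described here encode receptor chains for the alarmins interleukin-33 (IL-33), IL-25 and TSLP and for the related cytokines IL-18 and IL-1. They were chosen by symbol, as 9 named genes: Il1rl1, Il1rap, Il17rb, Il17ra, Crlf2, Il18r1, Il18rap, Il1r1 and Il1r2. Of these 9, 8 had a row among the 14868 genes of the deposited table, and Il1r2, which encodes a decoy receptor for IL-1, had none and was not analysed here. Helper T cells from wild-type (WT) mice and from Ikzf4-/- mice, which lack the gene of the Ikaros-family transcription factor Eos, were compared. Both strains were on the C57BL/6J background, and their ages are not given in the sources used here. Naïve CD4+ T cells of each genotype were grown for 72 h in complete IMDM on plates carrying anti-CD3 at 5 µg/mL and anti-CD28 at 2 µg/mL, which stimulate T cells through their antigen receptor and CD28. All cultures received IL-4 at 10 ng/mL and a blocking antibody to interferon gamma at 10 µg/mL, conditions that polarize T cells towards T helper 2 (Th2). The groups held 3 WT and 3 Ikzf4-/- libraries of total RNA. The labels do not say whether these came from separate mice or cultures, so p-values measure the spread between these libraries, which may be technical.

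Alarmins are cytokines released by stressed or damaged barrier tissue, and they act on Th2 cells, group 2 innate lymphoid cells, mast cells and other cells that carry their receptors. Each receptor pairs a chain that binds its own cytokine with a second chain, which several of them share with other cytokines. ST2, encoded by Il1rl1, pairs with the accessory protein encoded by Il1rap to bind IL-33, and IL17RB pairs with IL17RA to bind IL-25. The TSLP receptor chain encoded by Crlf2 pairs with the IL-7 receptor alpha chain encoded by Il7r, and the IL-18 receptor chains are encoded by Il18r1 and Il18rap. The IL-1 family receptors signal through MyD88 and NF-kB, the IL-25 receptor through the adapter ACT1, and the TSLP receptor through JAK kinases and STAT5.

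The values are normalized read counts, taken as reads divided by 1 factor per library, which implies between 34701390 and 40604346 reads in a library. Ikzf4 itself stood at 756, 499.6 and 483 normalized reads in WT and 25.2, 10.5 and 38.2 in Ikzf4-/- libraries, so each library matched its label. WT replicate 1 stood apart from the other WT libraries on the first principal component, at -41.3 against -12.5 and -5.26, with Ikzf4-/- libraries at 11.1 to 30.8. All 7 markers of CD4 T cells and all 6 markers of Th2 cells on the lists had a row, whereas 0 of 4 ILC2 markers, 1 of 7 myeloid markers (Cd68), 1 of 4 B cell markers and 1 of 3 NK cell markers had one. Of 2 CD8 T cell markers, 2 had a row, Cd8b1 at 179 to 215 and Cd8a at 33.3 to 208 normalized reads. Of 8 mast cell and basophil markers, Hdc, Gata2 and Mcpt8 had a row, and the defining genes Cpa3, Fcer1a, Ms4a2 and Kit had none. In such bulk libraries, fewer cells that express a gene and less RNA per cell cannot be told apart.

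The 8 receptor genes covered a wide range of levels, and the order within a receptor differed between the pairs. Il17ra and Il1rap were far above their partners Il17rb and Il1rl1, the ranges of Il18rap and Il18r1 overlapped, and Crlf2 was above Il7r. Levels between genes are given as normalized read count per kb of exon, because a long gene collects more reads. Crlf2 was the highest, at 1613 ± 85.3 per kb (SD, n = 6 libraries), the 91.2 percentile of genes with a known length. Il17ra followed at 264 ± 16.3 and Il1rap at 69.2 ± 4.05. The ranges of these 3 genes over the 6 libraries did not overlap with each other or with any of the other 5. Il17rb was at 12.3 ± 6.79, Il18rap at 7.38 ± 2.25, Il18r1 at 4.77 ± 2.54, Il1rl1 at 2.68 ± 1.74 and Il1r1 at 2.52 ± 1.28. In this lower part of the order each gene overlapped with its neighbour. Il17rb was above Il18rap in 4 of 6 libraries, Il18rap above Il18r1 in 6, Il18r1 above Il1rl1 in 5 and Il1rl1 above Il1r1 in 3. Il1rl1 and Il1r1 lay at the 2.41 and 2.16 percentile of per-length level among the genes with a length. Levels per kb rest on all annotated exons of a gene, so a gene of which only a short form is made is understated.

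**Figure D1:**
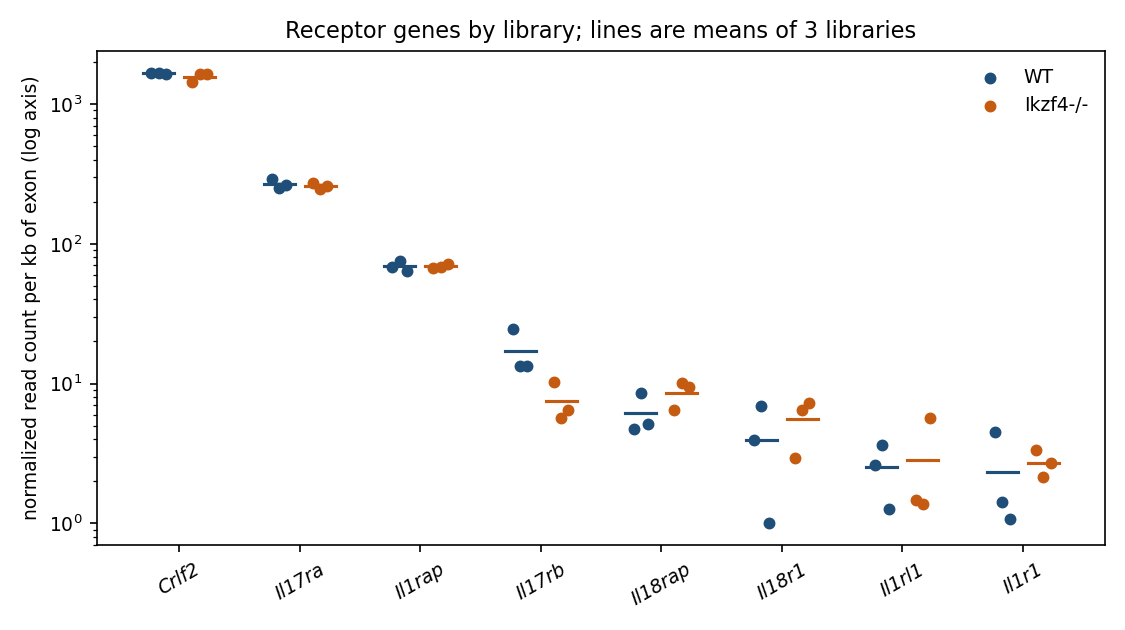
Normalized read count per kb of exon (log axis) of the 8 receptor genes, ordered by mean, with 1 point per library and a line at the mean of 3 libraries for WT (blue) and Ikzf4-/- (orange). Crlf2 lies between 1441 and 1661 in every library, whereas Il1rl1 and Il1r1 lie below 6.

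A gene was taken as near the detection floor where its mean over the 6 libraries was under 50 normalized reads. Any gene with a row had at least 61 implied reads over the 6 libraries, or about 10 per library, so this range lies just above the lowest values the table holds. Il17rb, Il18r1, Il18rap, Il1r1 and Il1rl1 were near the floor, with means over the 6 libraries of 45.5, 23.0, 49.8, 16.1 and 18.4. Crlf2, Il17ra and Il1rap were well above it, at 2412, 2283 and 786. The lowest single value was for Il18r1 in WT replicate 3, at 4.85, or 5 implied reads. Genes in this range carry large errors: the median standard error of the fitted log2 change was 0.39 for the 3264 tested genes with a mean under 50 and 0.08 for the others.

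None of the 8 receptor genes passed the test between genotypes. The test was limma on log2(value + 1), with p-values adjusted by Benjamini-Hochberg over the 14864 genes tested, and the threshold for a call was an adjusted p of 0.05. Over all genes 263 were called, or 1.77%, 178 of them lower and 85 higher in Ikzf4-/- cells, so a count of 0 of 8 lies near what this share would give. Of the genes with a mean under 50, 6 of 3264 were called. At an unadjusted p under 0.05, 1 of the 8 receptor genes (Il17rb) passed, against 18.1% of all genes tested. For 1 of 8 receptor genes, again Il17rb, all libraries of one genotype lay below all of the other, against 23.1% of all genes. In the authors' deposited table, Il17rb had an adjusted p under 0.05 and 4 other receptor genes did not. No adjusted p was given there for Il1rl1, Il18r1 and Il1r1. Over all genes with an adjusted p in the authors' deposited table, 6.34% were under 0.05.

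**Figure D2:**
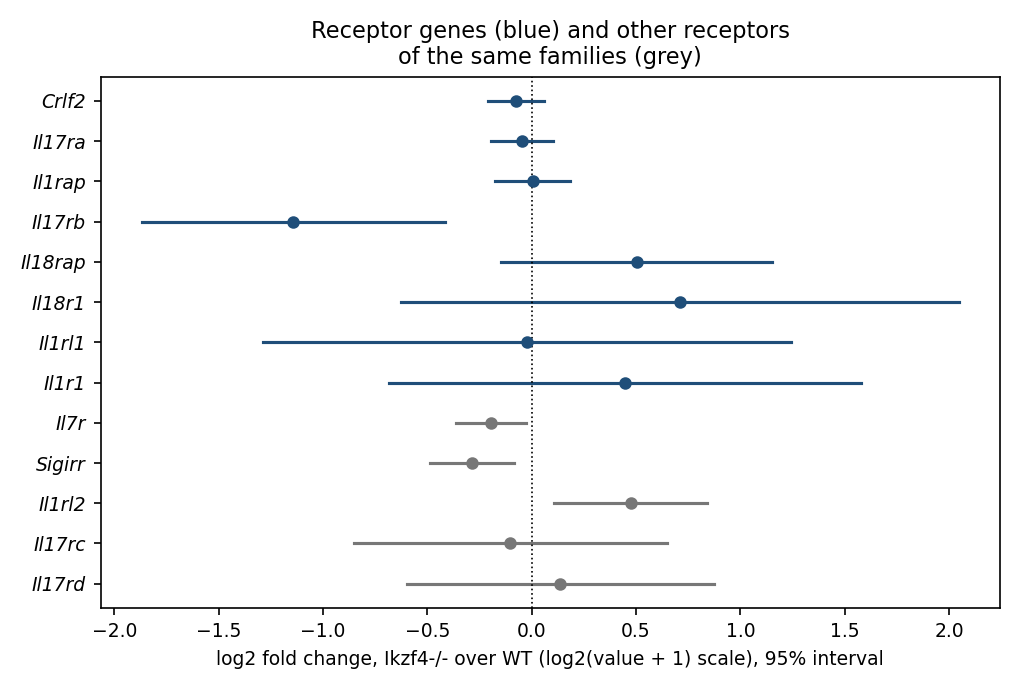
Fitted log2 fold change of Ikzf4-/- over WT on the log2(value + 1) scale, with its 95% interval from limma, for the 8 receptor genes (blue) and for other receptors of the same families (grey). Il17rb has the lowest value, -1.14, and the intervals of Il1rl1, Il18r1 and Il1r1 are the widest.

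Il17rb, which encodes the chain that gives the IL-25 receptor its specificity, had the largest difference between genotypes of the 8 genes. Given in replicate order, as throughout, WT libraries held 90.5, 49.4 and 49.5 normalized reads of it, against 38.3, 20.9 and 24.1 for Ikzf4-/- libraries. All 3 Ikzf4-/- libraries were below all 3 WT libraries, and WT replicate 1 was the highest. These values stand for 85, 55 and 51 implied reads in WT and 38, 20 and 24 in Ikzf4-/- libraries. The means were 63.1 ± 23.7 and 27.8 ± 9.26 (SD, n = 3 each), and the fitted log2 change was -1.14 (SE 0.33), with a 95% interval from -1.87 to -0.41. The limma adjusted p was 0.103, above the threshold, and the unadjusted p was 0.00545. The authors' deposited table gives -1.18 for the same log2 change, and its adjusted p there is 0.0421. With the replicate number as a block, the limma adjusted p was 0.0321, but the numbers were not shown to pair the libraries. Without WT replicate 1 the log2 fold change was -0.86 with a limma adjusted p of 0.279, and the values of the other 2 WT libraries still lay above all 3 Ikzf4-/- libraries.

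Il17rb lies on the minus strand of chromosome 14, from 29996135 to 30008896 in GRCm38, back to back with Chdh on the plus strand, which begins after a gap of 126 bases. Chdh encodes choline dehydrogenase, a mitochondrial enzyme of betaine synthesis, and was looked at only after the values of Il17rb were seen. WT libraries held 68.1, 61.1 and 100.9 normalized reads of it, against 48.4, 49.2 and 24.1 for Ikzf4-/- libraries. The genotypes again did not overlap, at a fitted log2 change of -0.94 (95% interval from -1.64 to -0.24), and limma gave an adjusted p of 0.152, above the threshold. The highest WT library was replicate 1 for Il17rb and replicate 3 for Chdh. Actr8, which encodes an actin-related protein of a chromatin remodelling complex, overlaps Il17rb on the other strand and shares 141 of its 3707 exon bases. The sources used here do not say whether counting used strand, so reads in those bases cannot be assigned. Actr8 was at 1306 ± 51.9 in WT and 1302 ± 94.5 in Ikzf4-/- libraries (SD, n = 3 each), a log2 fold change of -0.01.

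The 126 bases between Il17rb and Chdh are shown because the genes start at its ends and both were lower in each Ikzf4-/- library. The sequence is from RefSeq (GRCm38.p6), chr14:30008897-30009022, read 5′ to 3′ in the direction of Il17rb, whose annotated start follows its last base. Letters are in lower case, and capitals mark letters of a searched motif.
Il17rb upstream: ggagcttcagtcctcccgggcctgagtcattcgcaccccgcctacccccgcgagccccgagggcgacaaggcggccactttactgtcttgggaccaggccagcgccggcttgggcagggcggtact
The motifs were AGATAA or TGATAA for GATA factors, TTCNNNGAA for STAT factors and TGGGAA for Ikaros-family factors, each on both strands. None of the 3 was found here or in the full 250 bases upstream of Il17rb. Of all 32851 upstream windows of 250 bases in the same table, 16.6% held the GATA letters, 7.02% the STAT letters and 21.6% the Ikaros letters. A match or its absence describes only these letters in this window.

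Il17ra, which encodes the chain shared by receptors of IL-17 cytokines, was abundant, and its genotypes overlapped. WT libraries held 2508, 2155 and 2297 normalized reads of it, against 2359, 2121 and 2256 for Ikzf4-/- libraries. The log2 fold change was -0.05 with a 95% interval from -0.19 to 0.10 (limma adjusted p = 0.775). Il17rb was at 8.43%, 5.36% and 5.03% of the per-length level of Il17ra in WT and 2.31% to 3.80% in Ikzf4-/- libraries. The log2 ratio of Il17rb to Il17ra was lower by 1.10 on average in Ikzf4-/- cells, from -5.23 ± 0.40 to -6.33 ± 0.37 (SD, n = 3 each). An exact two-sided permutation test gave p = 0.1, the smallest that 3 against 3 libraries allow, and 0.4 after adjustment over the 4 chain ratios compared. Il17ra lies on chromosome 6, from 120463247 to 120487559 on the plus strand of GRCm38.

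**Figure D3:**
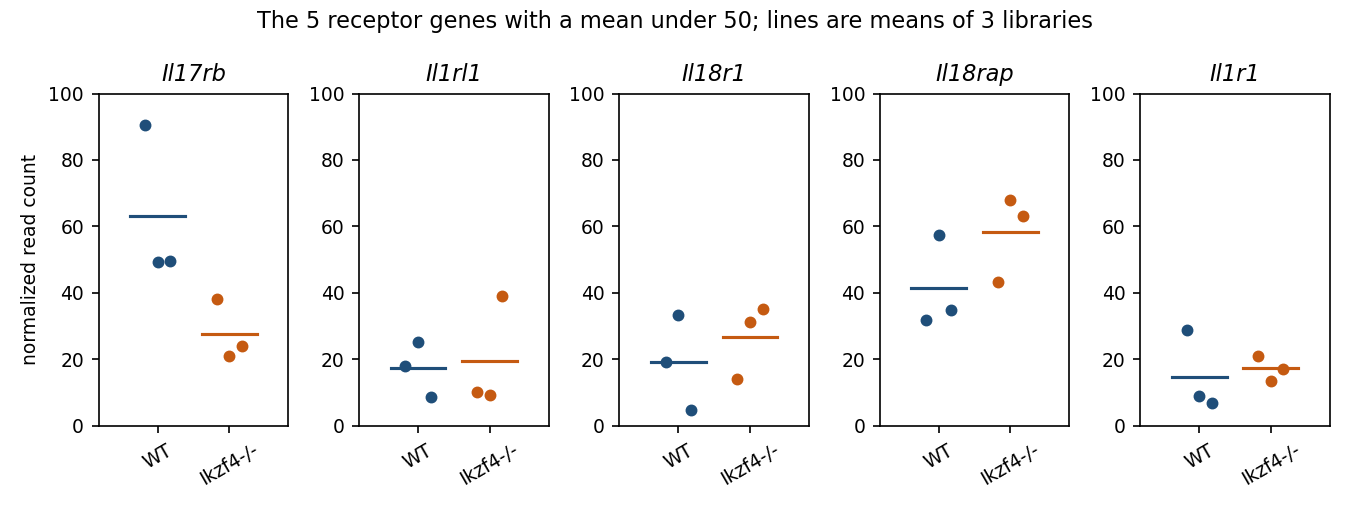
Normalized read count of the 5 receptor genes near the detection floor, with 1 point per library and a line at the mean of 3 libraries. Only for Il17rb do the WT points (49.4 to 90.5) and the Ikzf4-/- points (20.9 to 38.3) not overlap.

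The IL-33 receptor chain ST2, often used as a marker of Th2 cells, was barely detected. Il1rl1 was at 18.1, 25.2 and 8.73 normalized reads in WT and 10.1, 9.42 and 39.2 in Ikzf4-/- libraries, or 9 to 39 implied reads. The genotypes overlapped fully, with the highest value in Ikzf4-/- replicate 3 and the lowest in WT replicate 3. The means were 17.3 ± 8.24 and 19.6 ± 16.99 (SD, n = 3 each), and the log2 fold change was -0.02 with a 95% interval from -1.29 to 1.24 (limma adjusted p = 0.990). Without Ikzf4-/- replicate 3 the log2 fold change was -0.66, and without Ikzf4-/- replicate 2 it was 0.32. At this depth the interval of the fold reached from 0.410 to 2.36. Il1rl1 makes a membrane form and a soluble decoy form of ST2, and gene-level values do not separate them. Mcpt8, which encodes a protease of basophils, was at 33.0, 18.9 and 2.91 in WT and 0, 4.19 and 28.1 in Ikzf4-/- libraries. The 3 mast cell and basophil markers with a row summed to 2069 to 2460 in WT and 1994 to 2455 in Ikzf4-/- libraries, most of it Hdc, at 1837 to 2326. The 3 libraries with the highest Il1rl1 were also the 3 with the highest Mcpt8, but the other markers of this list had another order. Hdc was lowest in Ikzf4-/- replicate 3, where Il1rl1 was highest. Gata2 was at 37.3, 118.6 and 78.6 in WT and 134.2, 124.6 and 128.6 in Ikzf4-/- libraries, without overlap of the genotypes (limma adjusted p = 0.206). Mcpt8 was singled out after its values were seen, and its part in the spread of Il1rl1 was not tested.

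Il1rap, the accessory chain for IL-33 and IL-1, was at a similar level in every library. WT libraries held 773, 859 and 725 normalized reads of it, against 766, 779 and 816 for Ikzf4-/- libraries. The Ikzf4-/- values all lay inside the WT range, and the log2 fold change was 0.01 with a 95% interval from -0.17 to 0.18 (limma adjusted p = 0.983). Of its 11360 exon bases, 552 are shared with the annotated gene Gm20319. Per length, Il1rl1 stood at 1.99% to 4.83% of Il1rap in WT and 1.99% to 7.91% in Ikzf4-/- libraries. The log2 ratio of the pair differed by -0.03 between genotypes (exact two-sided permutation p = 0.9, adjusted 1.0). Il1rap lies on chromosome 16, from 26581704 to 26730117 on the plus strand of GRCm38.

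The upstream bases of Il1rl1 are shown because this chain is the one specific to IL-33 and was near the floor. Gata3, the gene of the Th2 lineage factor that binds GATA letters, had a mean normalized read count of 8495 in WT and 7167 in Ikzf4-/- libraries (limma adjusted p = 0.146). For Gata3, the authors' deposited table gives an adjusted p of 0.0386. The window is chr1:40429320-40429569 of GRCm38.p6 on the plus strand, from RefSeq, and ends at the base before the first of 2 starts of Il1rl1 in the table.
Il1rl1 upstream: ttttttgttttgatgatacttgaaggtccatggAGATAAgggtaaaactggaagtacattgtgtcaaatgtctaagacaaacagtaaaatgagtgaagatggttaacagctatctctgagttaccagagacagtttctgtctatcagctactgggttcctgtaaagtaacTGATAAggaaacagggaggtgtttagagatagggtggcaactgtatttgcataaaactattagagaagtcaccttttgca
The capitals mark 2 matches to the GATA letters, which begin 217 and 80 bases before the start. No match to the STAT or Ikaros letters was found in it. The window before the second start of Il1rl1 held 1 GATA match and 1 Ikaros match.

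Crlf2, which encodes the TSLP-binding chain, was expressed at a high and even level. WT libraries held 2483, 2483 and 2452 normalized reads of it, against 2154, 2443 and 2457 for Ikzf4-/- libraries. Ikzf4-/- replicate 1 was the lowest and replicate 3 overlapped with WT. The log2 fold change was -0.07 with a 95% interval from -0.21 to 0.06 (limma adjusted p = 0.565), which on a linear scale reaches from 0.865 to 1.04. Il7r, whose product completes the TSLP receptor and also serves IL-7, was at 1057, 1191 and 1253 in WT and 983, 1048 and 1018 in Ikzf4-/- libraries. All 3 Ikzf4-/- values of Il7r lay below the WT values, but its log2 fold change of -0.20 did not pass the test (limma adjusted p = 0.201). Per length, Crlf2 stood at 610% to 732% of Il7r in WT and 684% to 753% in Ikzf4-/- libraries, and the difference of 0.12 in their log2 ratio was within the spread (exact two-sided permutation p = 0.3, adjusted 0.6). Of the 4 pairs compared, Crlf2 and Il7r were the one in which the chain that binds the named cytokine was the more abundant per length in all 6 libraries.

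The upstream bases of Crlf2, the most abundant of the 8 genes per length, are shown beside those of Il17rb and Il1rl1. The window is chr5:109558994-109559243 of GRCm38.p6 on the minus strand, from RefSeq, given 5′ to 3′ in the direction of the gene.
Crlf2 upstream: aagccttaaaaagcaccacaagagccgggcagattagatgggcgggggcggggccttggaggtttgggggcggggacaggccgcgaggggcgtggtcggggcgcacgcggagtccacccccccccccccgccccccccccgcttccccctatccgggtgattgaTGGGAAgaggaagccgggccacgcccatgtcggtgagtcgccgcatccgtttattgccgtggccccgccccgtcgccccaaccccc
The capitals mark 1 match to the Ikaros letters, which begins 86 bases before the start. No GATA or STAT match was found. Il1rap and the first start of Il1r1 also held 1 Ikaros match each in their windows. The windows of the 3 starts of Il18r1, which overlap in part, held 1, 1 and 2 Ikaros matches, and the last of them also held 2 STAT matches. Il18rap held 1 GATA match and no Ikaros match. Crlf2 itself lies from 109554709 to 109558993 on chromosome 5.

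The IL-18 receptor chains were near the floor in both genotypes. Il18r1, the IL-18-binding chain, was at 19.2, 33.2 and 4.85 normalized reads in WT and 14.1, 31.4 and 35.2 in Ikzf4-/- libraries. WT replicate 3 was the lowest and the genotypes overlapped, at a fitted log2 change of 0.71 with a 95% interval from -0.63 to 2.05 (limma adjusted p = 0.588). Il18rap, the signalling partner, was at 31.9, 57.5 and 34.9 in WT and 43.4, 68.0 and 63.3 in Ikzf4-/- libraries. Here too the genotypes overlapped, through WT replicate 2 and Ikzf4-/- replicate 1. The log2 fold change was 0.50 with a 95% interval from -0.15 to 1.15 (limma adjusted p = 0.406). The log2 ratio of Il18r1 to Il18rap differed by 0.21 between genotypes (exact two-sided permutation p = 1.0). Without WT replicate 3, which held 5 implied reads of Il18r1, the log2 fold change of Il18r1 was -0.01 and the difference in the ratio was -0.42. Per length, Il18r1 was at 19.5% to 84.1% of Il18rap over the 6 libraries. Both chains are more typical of Th1 cells. The 4 listed Th1 markers (Tbx21, Ifng, Cxcr3 and Il12rb2) summed to 2056 to 4394 in WT and 2446 to 3728 in Ikzf4-/- libraries. The largest part was Ifng, at 999 to 2778 over the 6 libraries. Fitted log2 changes of all 4 were negative, with a median of -0.18 and -0.002 for Cxcr3. limma called 0 of 4, 1 had an unadjusted p under 0.05, and 1 (Il12rb2) was under 0.05 in the authors' deposited table. The shares over all genes were 1.77%, 18.1% and 6.34%, in the same order. Il12rb2 showed a fitted log2 change of -0.61, and its limma adjusted p was 0.0621.

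Il1r1, which encodes the signalling IL-1 receptor that Th17 cells carry, was at 28.7, 8.99 and 6.79 in WT and 21.2, 13.6 and 17.1 in Ikzf4-/- libraries. WT replicate 1 was the highest of all 6, and the Ikzf4-/- values lay between it and the other WT values. The log2 fold change was 0.45 with a 95% interval from -0.68 to 1.58 (limma adjusted p = 0.706). It was 1.03 without WT replicate 1 and 0.07 without WT replicate 3. The planned ratio of Il1r1 to the decoy Il1r2 was not computed, since Il1r2 had no row.

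Il1r2, Il1r1, Il1rl1, Il18r1 and Il18rap lie in a row on the plus strand of chromosome 1, from 40074079 to 40551705 in GRCm38, with Il1rl2 between Il1r1 and Il1rl1. Il1rl1 ends at 40465415, only 136 bases before Il18r1 begins at 40465552, so reads that run past the end of Il1rl1 could be counted for Il18r1. Of the 6 protein-coding genes in this span of 477627 bases, 5 had a row and none of the 5 was called. Il1rl2, which encodes the IL-36 receptor and is no member of the 9, was the highest of them per length, at 29.5 against 2.52 to 7.38 for the others. WT libraries held 145, 184 and 174 normalized reads of it, against 194, 284 and 227 for Ikzf4-/- libraries. The genotypes of Il1rl2 did not overlap, at a fitted log2 change of 0.47 with a 95% interval from 0.11 to 0.84, but the limma adjusted p of 0.166 was above the threshold. At an unadjusted p under 0.05, Il1rl2 alone of the 5 passed. The authors' deposited table gives it an adjusted p of 0.107. The 3 nearest genes with a row before this span (Rnf149, Rfx8 and Map4k4) and after it (Mfsd9, Mrps9 and Tgfbrap1) had limma adjusted p-values from 0.345 to 0.929. Per length, the nearest gene with a row before the span, Map4k4, was at 737, and the nearest after it, Mfsd9, was at 4.55, within the range of the receptor genes. Rfx8 was at 19.4, Rnf149 at 390.1, and Mrps9 and Tgfbrap1, which lie 2299528 and 2495495 bases away, at 355 and 148.

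**Figure D4:**
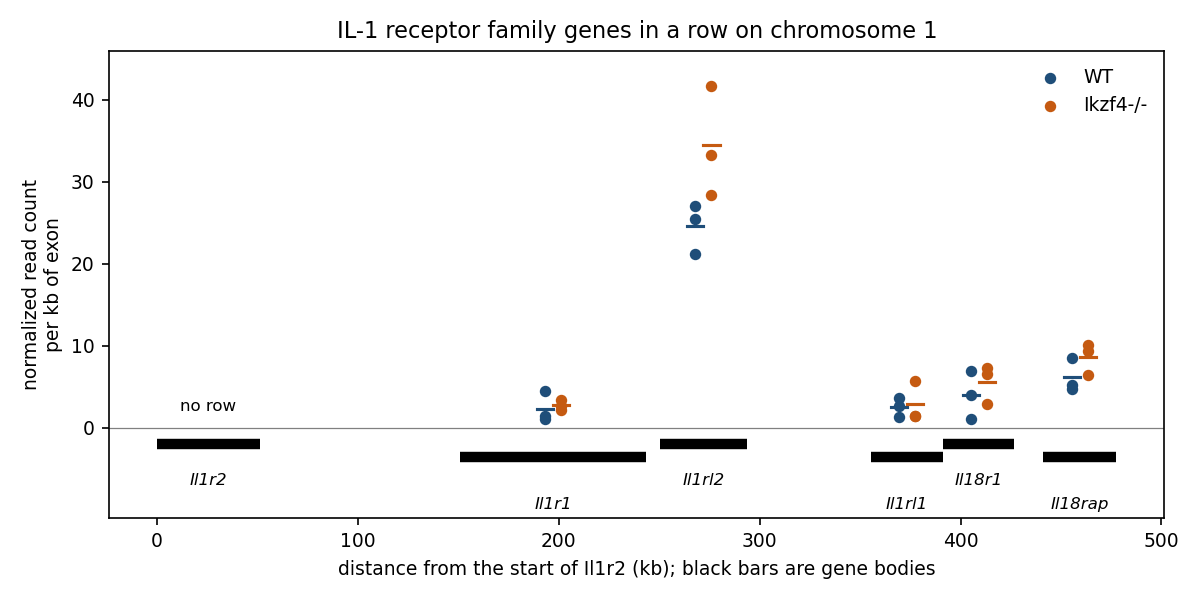
Normalized read count per kb of exon of the 6 protein-coding genes from Il1r2 to Il18rap on chromosome 1, placed by distance from the start of Il1r2, with 1 point per library and a line at the mean of 3. Il1rl2 stands at 29.5 per kb on average, and the means of the other genes with a row lie at 7.38 or below.

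The genes of the ligands of these receptors mostly had no row. Any gene with a row had at least 61 implied reads over the 6 libraries, so a missing row does not show that a gene was silent. Of 8 listed ligands and antagonists, Il33, Il25, Tslp, Il18, Il1b and Il1rn had no row. Il1a, which encodes an IL-1 that is also released from damaged cells, was at 47.9, 86.3 and 77.6 in WT and 129, 117 and 115 in Ikzf4-/- libraries. All 3 Ikzf4-/- values of Il1a were above the WT values, at a fitted log2 change of 0.80 (95% interval from 0.29 to 1.31), and limma gave an adjusted p of 0.102. For Il1a, the authors' deposited table gives an adjusted p of 0.0497. Il18bp, the gene of a soluble IL-18 antagonist, showed a fitted log2 change of 0.38, and its limma adjusted p was 0.353.

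The other genes of these pathways were taken from lists of 54 genes, 46 of which had a row. limma called 2 of the 46 (4.35%), both lower, against 1.77% of all genes. The lists were chosen with earlier results of these data known, so the 2 shares are no test of the pathways. Their median log2 fold change was 0.01, and that of all genes was 0.00. Both called genes were Th2 effector cytokines, Il4 at -0.87 on the log2 scale (limma adjusted p = 0.0144) and Il13 at -0.82 (0.0450). Il5, an eosinophil growth factor and a product of IL-33 signalling, was at 126, 88.1 and 136 in WT and 65.6, 32.5 and 51.2 in Ikzf4-/- libraries, with a limma adjusted p of 0.0529. For Il5, the authors' deposited table gives an adjusted p of 0.00209. Without Ikzf4-/- replicate 3, 0 of the 46 were called, and without WT replicate 2, Ikzf4-/- replicate 1 or Ikzf4-/- replicate 2, 1 was called.

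Among the other receptors, Sigirr, which encodes an inhibitory member of the IL-1 receptor family, was abundant, at 4175 ± 490.4 in WT and 3425 ± 373 in Ikzf4-/- libraries (SD, n = 3 each). Its genotypes overlapped, at a fitted log2 change of -0.28 (limma adjusted p = 0.137), and the authors' deposited table gives it 0.0297. Il17rc and Il17rd, further chains of the IL-17 receptor family, were at 13.1 to 19.9 and 23.2 to 44.2, and Il17re had no row. Of the 5 other receptors with a row, 0 were called by limma, 3 (Il7r, Sigirr and Il1rl2) had an unadjusted p under 0.05, and 1 was under 0.05 in the authors' deposited table. The shares over all genes were 1.77%, 18.1% and 6.34%, in the same order.

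The signalling genes downstream of the receptors were present in both genotypes. All 21 genes of the MyD88 and NF-kB list had a row, from Nfkb1 at 22133 to 26058 normalized reads to the kinase-like inhibitor Irak3 at 9.08 to 14.1. The adapter Myd88 was at 2997 to 3186. Their median log2 fold change was 0.01. limma called 0 of 21, 5 had an unadjusted p under 0.05, and 1, Map3k7, which encodes the kinase TAK1, was under 0.05 in the authors' deposited table. Map3k7 was at 3000, 3228 and 3347 in WT and 3531, 3678 and 3873 in Ikzf4-/- libraries, a fitted log2 change of 0.21 without overlap of the genotypes (limma adjusted p = 0.0863). Of the 6 IL-17 receptor adapters 0 were called, 2 had an unadjusted p under 0.05 and 1, Usp25, was under 0.05 in the authors' deposited table. Traf3ip2, which encodes ACT1, had a log2 fold change of 0.02 with a limma adjusted p of 0.902. Of Jak1, Jak2, Stat5a and Stat5b, 0 were called, 0 had an unadjusted p under 0.05 and 0 were under 0.05 in the authors' deposited table. Over the 46 genes, the genotypes did not overlap for 18 (39.1%), against 23.1% of all genes. These shares are not at like levels: 3264 of the 14864 genes tested had a mean under 50, where errors are large. Most of the 46 were above that level.

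**Figure D5:**
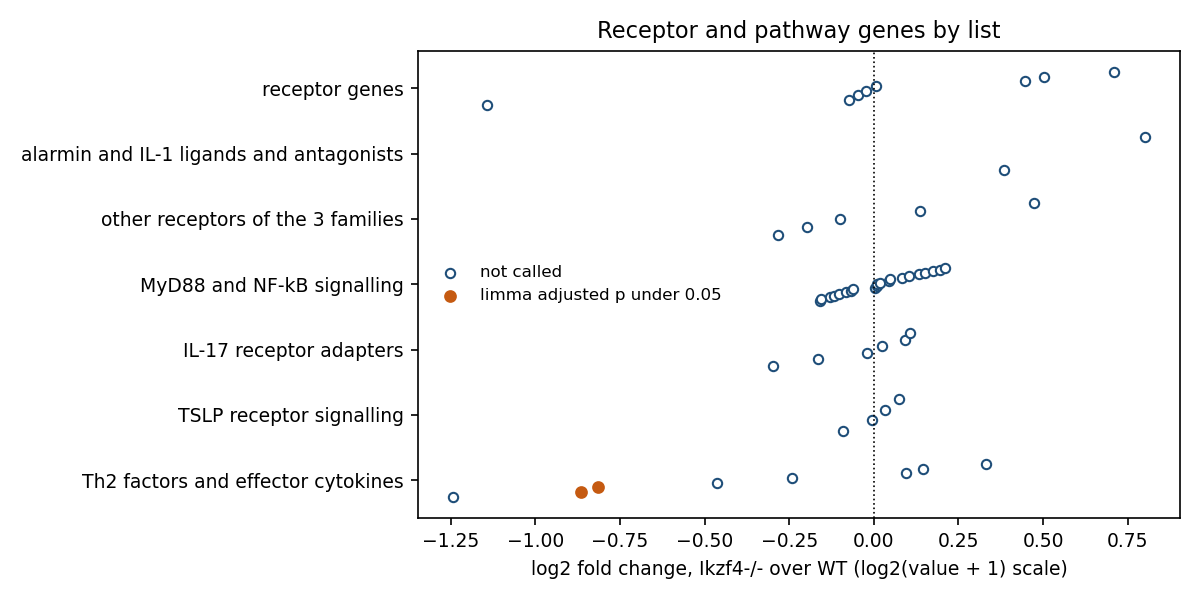
Log2 fold change of Ikzf4-/- over WT on the log2(value + 1) scale for the 8 receptor genes and the 46 pathway genes, by list, with filled orange points for genes called by limma at an adjusted p under 0.05. Filled points appear only for Il4 and Il13, and the signalling lists lie near 0.

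The 6 listed Th2 markers had negative log2 fold changes, as Il17rb did. limma called 3 of them lower (Il4, Il13 and Ccr8), and the other 3, Gata3, Il5 and Ccr4, had log2 fold changes of -0.24, -1.24 and -0.33 without a call. Their summed level was 23948 to 28781 in WT and 18695 to 21296 in Ikzf4-/- libraries, and their median log2 fold change was -0.61, against 0.00 for all genes. Gata3, Il4, Il5 and Il13 are also on the list of Th2 factors and effector cytokines, where 5 of 8 genes had negative log2 fold changes. The others, Stat6, Csf2 and Maf, were at 0.09, 0.14 and 0.33, and all Ikzf4-/- values of Maf lay above the WT values. The part of the Th2 genes in the values of Il17rb was not tested. On the list of regulatory T cell markers, which can also carry ST2, limma called 0 of 6, with 2 at an unadjusted p under 0.05 and 0 under 0.05 in the authors' deposited table. Foxp3 was at 36.2, 97.0 and 42.7 in WT and 43.4, 31.4 and 48.2 in Ikzf4-/- libraries. Its highest value was in WT replicate 2, and that of Il1rl1 in Ikzf4-/- replicate 3. The summed level of the 6 regulatory T cell markers was 39854 to 59264 in WT and 33952 to 37452 in Ikzf4-/- libraries. Most of it was Il2ra, the IL-2 receptor alpha chain that activated T cells also carry, at 32098 to 49294 in WT and 25432 to 29286 in Ikzf4-/- libraries (limma adjusted p = 0.0869), whereas Foxp3 and Ikzf2 were at 31.4 to 169 and overlapped between genotypes. Their part in the values of the receptor genes was not tested.

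For the 3 receptor genes above the floor, the most similar genes over the 6 libraries were found by Pearson correlation of log2(value + 1) among 11599 other genes with a mean of at least 50. With Crlf2 these were Tmem238 (r = 0.993), Lmf1 (0.990) and Rom1 (0.981), with Il17ra Zfp524 (0.983), Sh3bp4 (0.983) and Rrp1b (0.979), and with Il1rap Lpin3 (0.990), Ttc19 (0.972) and Pik3c2a (0.966). None of these 9 genes was called between genotypes. The correlations share 6 libraries and their scaling, and r was over 0.95 for 21, 19 and 5 genes with Crlf2, Il17ra and Il1rap.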

How the data were processed

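RNA of 3 WT and 3 Ikzf4-/- samples was sequenced. The deposited table holds a never-negative signal per gene and library, read as normalized read counts because 100% of values under 5000 reads in each library lay within 0.1 of a whole multiple of 1 step. It also holds the authors' log2 fold changes and the authors' p-values and adjusted p-values. The submitters' processing notes name Trimmomatic 0.36, STAR 2.5.2b, DESeq2 and GRCm38, with no role or order; the counting tool, annotation and use of strand are not given in the sources used here. No count model was used: the step lay close to 1 in Ikzf4-/- replicates 1 and 3, and the recovered reads did not meet the criterion set for such a test.

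Genes with a mean of 10 or more (14864) were fitted with limma 3.58.1 in R 4.3.3 on log2(value + 1), with a trend of variance with mean and genotype as the only term. The added 1 shrinks the change of low genes, and a fitted change, which is a difference of mean logs, can lie on either side of the log ratio of means: for Il18r1 the fitted fold was 1.64 and the ratio of means 1.41. P-values are two-sided, Benjamini-Hochberg adjusted over all genes tested, and 95% intervals are not adjusted. Tested on simulated data of 14868 genes for the same comparison, the fit recovered 94 of 100 genes changed by 1 on the log2 scale. It also recovered 94 of the 94 genes changed by 2 that stayed above the mean filter, with 8 false calls in all. Other genes changed by 2 fell under the filter, were not tested and are not in these counts. The simulation gave every gene the same dispersion. It was not set to the spread of the receptor genes near the floor, so it gives no recovery rate for them. Positions and exon lengths come from GENCODE M21 (GRCm38), matched by Ensembl identifier for 14836 genes. RefSeq upstream windows (GRCm38.p6) were matched by symbol for 8 of the 9 genes, with 12 windows; Il17ra was not matched. Printed windows leave out annotated exons.

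The receptor genes and gene lists were chosen with earlier results of these data known. Named genes were Ikzf4, all receptor genes with a row, called or cell-type-defining list genes, the genes from Il1r2 to Il18rap with the 3 nearest on each side, and the 3 most similar genes of each receptor gene with a mean of at least 50. Other names, such as Chdh, Actr8, Il12rb2 and list genes not called, were chosen after their values were seen. Alternatives were other scalings, filters and pseudocounts, array weights, a replicate block, the authors' deposited calls and leaving out each library. One of the marker lists is not reported here.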

Additional observations from a re-analysis of the deposited data

How the results depend on the processing

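No receptor gene was called with quantile, upper quartile or equal-total scaling, with no filter or a minimum of 10 in every library (which left 5 of the 8), with pseudocounts of 0.1 or 10, with array weights, or without any 1 library. With the replicate number as a replicate block, 1 receptor gene was called (Il17rb), with 7 pathway genes and 754 genes in all. Same-numbered libraries deviated with correlations of 0.145, 0.0122 and 0.142, not all over 0.1, and the libraries are treated as unpaired. The authors' deposited table gave 1 receptor gene, 8 pathway genes and 815 genes in all. Array weights gave 482 genes in all, and equal library totals left 1 pathway gene. Leaving out each library gave 20 to 523 genes in all and 0 to 3 pathway genes: 20 without Ikzf4-/- replicate 3, 48 without Ikzf4-/- replicate 1, 75 without WT replicate 2, 112 without Ikzf4-/- replicate 2 and 523 without WT replicate 3. The cause was not tested. Over the 15 limma alternatives the log2 fold change of Il17rb stayed negative, from -1.39 to -0.86, with adjusted p-values from 0.0321 to 0.279. That of Il1rl1 ran from -0.66 to 0.32 and kept its sign in 8 of 14. The sign also turned for Il18r1 in 1 of 14, Il17ra in 1 of 15 and Il1rap in 4 of 15, none of them called. Few reads limit Il1rl1, Il18r1, Il1r1, Il18rap and Il17rb.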
